A study of Mus musculus with 11 samples.

Results

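In the white adipose tissue of mice fed a high fat diet, 7 genes known for their use in striated muscle had higher levels in mice given iodomethylcholine (IMC). Myh2, Acta1 and Ldb3 encode parts of the contractile apparatus, Trdn and Ryr2 act in calcium release, Asb5 encodes a ubiquitin ligase adaptor and Tmem182 a membrane protein. The genes were taken by symbol from the 12787 genes of the adipose RNA-seq table. They had been selected on their higher log2 CPM in IMC-treated mice, so their differences between groups are given as a description, with no test. Male C57Bl6/J mice were fed a 60% high fat diet (HFD) for 20 weeks, either alone and labelled vehicle (HFD, n = 5 mice) or with 0.06% w/w IMC in the same diet (HFD + IMC, n = 6 mice). IMC blocks the bacterial enzyme, choline trimethylamine (TMA) lyase, with which gut microbes make TMA from choline. Gonadal white adipose tissue (WAT) was collected and 1 library was made per mouse. A sixth vehicle library was dropped by the submitters at quality control. By their labels the groups differed in IMC alone, and whole tissue was sequenced, not sorted cells. The paper reports that HFD-fed mice given IMC gained less weight and had less fat mass. Body weights of the sequenced mice were not used here.

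In a striated muscle fibre, myosin thick filaments pull on actin thin filaments that are anchored at the Z-disc. Contraction starts when ryanodine receptors release calcium from the sarcoplasmic reticulum, and triadin links these receptors to calsequestrin, the calcium store inside that compartment. Adipose tissue also holds contractile cells, namely the smooth muscle cells and pericytes of its vessels, and calcium cycling through ryanodine receptors and calcium pumps has been described in beige adipocytes.

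The DNA in front of the transcription start was read for 6 of the 7 genes (Trdn had no entry) from RefSeq on GRCm38.p6, the build of the mm10 assembly the submitters used. The sequences of 4 genes are shown because they hold letters that muscle promoters are known for. Each line gives 250 bases before the start, 5′ to 3′ on the strand of the gene. Capitals mark the CArG box (bound by serum response factor), the MEF2 site, CAGCTG (an E-box of the type bound by MyoD), CATTCC (the MCAT element bound by TEAD factors), TCAGGTT (the MEF3 site) and TATAAA, each searched on both strands. CAGCTG is one form of the general E-box, CANNTG, which was counted apart.
Acta1, chr8:123894776-123895025, minus strand: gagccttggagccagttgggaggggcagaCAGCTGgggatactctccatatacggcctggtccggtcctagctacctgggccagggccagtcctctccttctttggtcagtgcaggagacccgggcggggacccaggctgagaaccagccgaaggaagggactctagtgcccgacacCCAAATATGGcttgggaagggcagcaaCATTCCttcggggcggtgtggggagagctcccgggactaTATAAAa
Ldb3, chr14:34588682-34588931, minus strand: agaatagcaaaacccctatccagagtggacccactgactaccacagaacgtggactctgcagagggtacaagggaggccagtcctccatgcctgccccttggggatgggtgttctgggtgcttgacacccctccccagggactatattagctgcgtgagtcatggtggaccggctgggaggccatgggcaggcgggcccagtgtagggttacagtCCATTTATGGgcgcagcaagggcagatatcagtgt
Asb5, chr8:54550081-54550330, plus strand: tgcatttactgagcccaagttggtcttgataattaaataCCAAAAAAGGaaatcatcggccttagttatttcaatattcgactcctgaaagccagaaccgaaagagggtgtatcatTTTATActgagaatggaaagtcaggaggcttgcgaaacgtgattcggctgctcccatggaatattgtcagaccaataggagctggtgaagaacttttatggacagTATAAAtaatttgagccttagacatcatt
Tmem182, chr1:40805351-40805600, plus strand: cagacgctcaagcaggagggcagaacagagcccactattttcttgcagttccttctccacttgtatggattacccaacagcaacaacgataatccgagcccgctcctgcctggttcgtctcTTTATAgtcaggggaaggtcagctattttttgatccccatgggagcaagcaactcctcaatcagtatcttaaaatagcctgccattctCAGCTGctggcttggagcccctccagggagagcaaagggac

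A CArG box stood in front of 3 of the 6 genes. In Acta1 it read CCAAATATGG and lay 73 to 64 bases before the start, in Ldb3 it read CCATTTATGG and lay 35 to 26 bases before the start shown, and in Asb5 it read CCAAAAAAGG and lay 211 to 202 bases before it. The same Ldb3 box lay 109 to 100 bases before a second annotated start. Of all 32851 RefSeq mouse promoters of this length, 1.47% held a CArG box, as did 1.17% of the 12440 promoters of listed genes. These are shares of single windows, while Ldb3 and Asb5 had several windows each, so they are not shares of genes. Acta1 also held CAGCTG (13.0% of all promoters), CATTCC (12.6%) and TATAAA (12.4%). TATAAA also lay 29 to 24 bases before the Asb5 start shown. On the other strand, where it reads TTTATA, it lay at 134 to 129 bases in Asb5 and 129 to 124 bases in Tmem182. Tmem182 held CAGCTG 41 to 36 bases before its start, and a second start of Asb5 held a MEF2 site, found in 2.92% of all promoters. TCAGGTT, found in 3.49% of all promoters, was in none of the windows of the 6 genes, and CANNTG was in 66.2% of all promoters. The Myh2 window held none of these motifs and the Ryr2 window held CANNTG only. These matches are letters in a fixed window and not measured binding. The Ldb3 window and the window of the second Asb5 start lie inside the longer RefSeq intervals of their genes. The last 28 bases of the Tmem182 window lie inside that gene's interval.

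Each library held 22320022 to 25155366 reads on the listed genes, and 1 read was worth 0.0403 to 0.0450 CPM (reads scaled to library size). Every listed gene was above 1 CPM in at least 5 of the 11 mice. Myh2 and Asb5 were above 1 CPM in no HFD mouse, a pattern shared by 6 genes in all, so they passed this limit through the IMC-treated mice alone, and a listing at all required a higher level there. The other 5 genes were above 1 CPM in every mouse. In bulk tissue, more cells of a type and more RNA per cell cannot be told apart.

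For all 7 genes the lowest IMC-treated mouse was above the highest HFD mouse. Groups that did not overlap and were higher with IMC made up 12.5% of all 12787 genes, and a log2 fold change of at least 1, which all 7 reached, was found in 1.20%. These values chose the genes. The median log2 fold change was 1.61 for the 7 genes and -0.03 for all listed genes. Ordered by fold change among all genes, Myh2, Trdn and Ldb3 ranked 1, 2 and 3, Asb5 ranked 9, Ryr2 ranked 28, Acta1 ranked 44 and Tmem182 ranked 108.

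**Figure D1:**
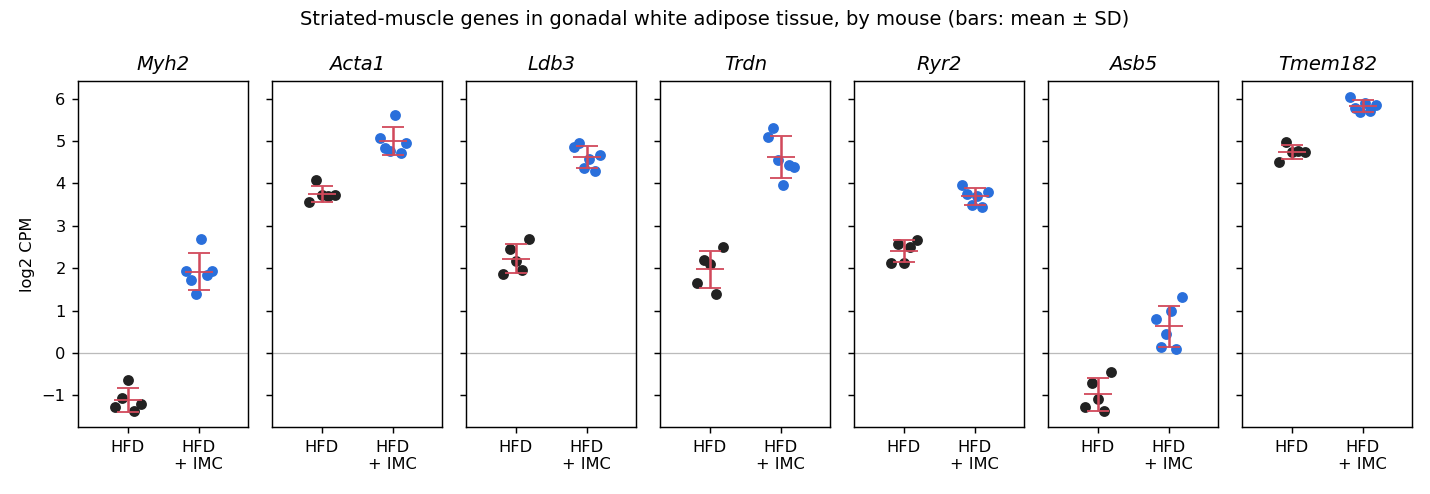
Level of each gene in log2 CPM (y axis) in each HFD mouse (black points) and HFD + IMC mouse (blue points), with red bars for the group mean ± SD. The groups do not overlap for any of the 7 genes, and Myh2 and Asb5 lie below 0 log2 CPM in every HFD mouse.

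Myh2 encodes the myosin heavy chain of fast oxidative (type IIa) muscle fibres, the motor of the thick filament. It lies on chromosome 11 from 67171027 to 67197517 (GRCm38). Its log2 CPM was -1.27, -1.05, -0.64, -1.36 and -1.20 in HFD mice 1 to 5. In HFD + IMC mice it ran from 1.38 (mouse 3) through a median of 1.89 to 2.69 (mouse 4). Its level was low in both groups, since it rested on 9 to 15 reads in HFD mice and 58 to 160 reads in IMC-treated mice. The mean was -1.10 ± 0.28 (SD, n = 5) and 1.92 ± 0.43 (SD, n = 6), a log2 fold change of 3.02 (SE 0.22), or 8.14-fold. Of the 50-base stretches of its transcripts, 24.6% also occur in other genes, mostly Myh1 (16.7%), then Myh8 and Myh4. Myh1, Myh4 and Myh8 had no row in the table used here, so their levels could not be set beside that of Myh2.

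The other thick filament and M-band genes were mostly not listed. Of 27 genes named for this structure, 9 had a row, and of the 8 besides Myh2, 3 were higher, 1 was lower and 4 did not pass an adjusted p of 0.05 (limma, Benjamini-Hochberg adjustment over all genes). Over all genes, 20% were called higher and 21% lower by the same test. Myom3, an M-band crosslinker, rose from between 0.29 and 1.60 log2 CPM in the HFD mice to between 1.66 and 2.63 log2 CPM in the IMC-treated mice (SE of the difference 0.22, limma adjusted p = 0.00341). The myosin light chains Myl1, of fast fibres, and Myl4, of atrial and embryonic muscle, rose by 0.78 (SE 0.16, limma adjusted p = 0.00233) and 0.77 (SE 0.14, limma adjusted p = 0.000969) on the log2 scale. Obsl1, a cytoskeletal adaptor, fell by 0.37 (SE 0.08, limma adjusted p = 0.00348), and without HFD mouse 1 the count of lower genes was 2. Ttn, Mylpf, Myh7 and the other sarcomeric myosin heavy chains looked up had no row.

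Acta1 encodes skeletal muscle alpha-actin, the main thin filament protein of skeletal fibres. Located on chromosome 8 from 123891758 to 123894775, it was the second most abundant of the 7 genes per length. In HFD mice 1 to 5 its log2 CPM was 3.56, 4.08, 3.72, 3.71 and 3.73. With IMC it ran from 4.71 (mouse 5) through a median of 4.90 to 5.62 (mouse 4). Mouse 4, which was also the highest for Myh2, held 1222 reads, while the other IMC-treated mice held 611 to 765. The mean was 3.76 ± 0.19 (SD, n = 5) and 4.99 ± 0.33 (SD, n = 6), a log2 fold change of 1.23 (SE 0.15), or 2.35-fold. Of its 50-base stretches, 2.02% occur elsewhere, among them in Actb, the cytoplasmic actin gene, and in pseudogenes.

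The thin filament genes beside Acta1 were not higher. Of 23 genes, 8 had a row, and of the 7 besides Acta1 the limma fit called 0 higher and 1 lower. The other 6 had log2 fold changes from -0.30 for Tnni3, the cardiac inhibitory troponin, to 0.25 for Neb, the ruler protein nebulin, named after its value was seen. No gene of the 7 was higher at an unadjusted p under 0.05 or by limma voom. Tpm3, a tropomyosin made in many cell types, fell by 0.28 (SE 0.06, limma adjusted p = 0.00391). The count of lower genes was 2 without HFD mouse 1, HFD + IMC mouse 2 or HFD + IMC mouse 5. Acta2, the smooth muscle actin of vessel walls and a relative of Acta1, rose from a log2 CPM of 6.69 ± 0.36 (SD, n = 5) to one of 7.39 ± 0.14 (SD, n = 6) (limma adjusted p = 0.00122).

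Ldb3 encodes a PDZ and LIM domain protein, also called Cypher or ZASP, that holds the Z-disc together through alpha-actinin. The gene spans chromosome 14 from 34526699 to 34590314. Its log2 CPM in HFD mice 1 to 5 was 1.87, 2.45, 2.17, 1.95 and 2.68. With IMC it ran from 4.29 (mouse 5) through a median of 4.62 to 4.96 (mouse 2). The distance between the groups was wide against the spread within them, since the lowest IMC-treated mouse was 1.61 log2 units above the highest HFD mouse. Reads numbered 81 to 150 per HFD mouse and 461 to 709 per IMC-treated mouse. The mean was 2.22 ± 0.34 (SD, n = 5) and 4.62 ± 0.27 (SD, n = 6), a log2 fold change of 2.40 (SE 0.16), or 5.26-fold. None of its 50-base stretches occurs in another gene.

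Of 27 Z-disc genes, 14 had a row, and of the 13 besides Ldb3, 5 were higher, 1 was lower and 7 were not called by limma. Cryab, a small heat shock protein that protects filaments, rose by 1.21 (SE 0.10, limma adjusted p = 2.3e-05). Synpo2 and Palld, both actin bundlers, rose by 0.81 (SE 0.11, limma adjusted p = 0.000182) and 0.52 (SE 0.05, limma adjusted p = 3.5e-05). Fhl1, a LIM domain protein, and Ankrd23, a titin-binding ankyrin repeat protein, rose by 0.55 and 0.72. Flnc, the muscle filamin, fell by 0.65 (SE 0.14, limma adjusted p = 0.00235). The PDZ and LIM domain relatives of Ldb3 did not pass the test, with log2 fold changes of -0.19 for Pdlim1 (SE 0.08), 0.01 for Pdlim5 (SE 0.06) and 0.23 for Pdlim7 (SE 0.09). Without HFD mouse 5, Pdlim1 was called lower (-0.26, limma adjusted p = 0.00841) and Pdlim7 higher (0.29, limma adjusted p = 0.0242), and the count of lower genes was 2 without HFD mouse 3, HFD mouse 5 or HFD + IMC mouse 6. Ankrd23 and Flnc were picked for naming after their values were seen.

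Trdn encodes triadin, which anchors calsequestrin to the ryanodine receptor in the membrane of the sarcoplasmic reticulum. It lies on chromosome 10 from 33083483 to 33476709, an interval that 4 other annotated genes overlap, none of which had a row. Its log2 CPM was 1.66, 2.20, 2.10, 1.39 and 2.505 in HFD mice 1 to 5. In HFD + IMC mice it ran from 3.97 (mouse 4) through a median of 4.49 to 5.31 (mouse 2). Trdn was thus lowest in the IMC-treated mouse that was highest for Myh2 and Acta1. Its mean was 1.97 ± 0.45 (SD, n = 5) and 4.63 ± 0.49 (SD, n = 6), a log2 fold change of 2.66 (SE 0.24), or 6.30-fold, from 62 to 133 reads per HFD mouse to 389 to 900 reads per IMC-treated mouse. None of its 50-base stretches occurs in another gene. The strand setting of the authors' counting is not given in the sources used here.

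Ryr2 encodes the cardiac ryanodine receptor, the calcium release channel that triadin binds. The gene spans chromosome 13 from 11553099 to 12106945. Its log2 CPM was 2.13, 2.58, 2.12, 2.505 and 2.67 in HFD mice 1 to 5. In HFD + IMC mice it ran from 3.44 (mouse 5) through a median of 3.73 to 3.96 (mouse 1). The IMC-treated mice lay close together, within 250 to 357 reads, against 97 to 149 reads in HFD mice. The mean was 2.40 ± 0.26 (SD, n = 5) and 3.69 ± 0.20 (SD, n = 6), a log2 fold change of 1.29 (SE 0.13), or 2.45-fold. Ryr1, the skeletal muscle channel, was at 2.71 ± 0.20 (SD, n = 5) and 2.72 ± 0.21 (SD, n = 6), a log2 fold change of 0.01 (SE 0.12) that did not pass the test (limma adjusted p = 0.965). Per kilobase of exon, the median level of Ryr1 was 0.30 CPM in HFD mice and 0.295 CPM in IMC-treated mice, and that of Ryr2 was 0.197 and 0.461 CPM.

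The other calcium genes moved in both directions. Of 40 genes of calcium release and uptake, 27 had a row, and of the 25 besides Trdn and Ryr2, 8 were higher, 6 were lower and 11 were not called by limma. Jph1, a junctophilin that ties the sarcoplasmic reticulum to the cell membrane, rose from a log2 CPM of 2.53 ± 0.20 (SD, n = 5) to one of 3.50 ± 0.17 (SD, n = 6) (limma adjusted p = 4.75e-05). Atp2a3, a calcium pump of non-muscle cells, rose by 0.70 (SE 0.12, limma adjusted p = 0.000703). Tmem38b, a potassium channel of the same membrane, and Itpr1, an inositol trisphosphate receptor, rose by 0.45 (SE 0.07, limma adjusted p = 0.000511) and 0.42 (SE 0.07, limma adjusted p = 0.000731). Atp2a2, the pump of heart, slow muscle and most other cells, had a log2 fold change of 0.13 (SE 0.06) that did not pass the test (limma adjusted p = 0.0973), although it did without HFD mouse 2 (0.17, limma adjusted p = 0.0396).

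Casq1, the skeletal calsequestrin that triadin binds, had a log2 fold change of 0.93 (SE 0.31, limma adjusted p = 0.0293). Its groups overlapped, and the call was lost when any of HFD mice 1 to 4 or HFD + IMC mice 1, 2 or 6 was left out (limma adjusted p = 0.0526 to 0.0762). Srl, sarcalumenin, a further calcium-binding protein of that compartment, rose by 0.53 (SE 0.11, limma adjusted p = 0.00158). Among the lower genes, Fkbp1b, the ryanodine receptor stabiliser calstabin, fell by 0.63 (SE 0.12, limma adjusted p = 0.00111) and S100a1, a calcium sensor, fell by 0.41 (SE 0.08, limma adjusted p = 0.0011). Cacnb1, a calcium channel subunit, fell by 0.48 (SE 0.14, limma adjusted p = 0.0146). These 5 genes and Atp2a2 were picked for naming after their values were seen. Casq2, Atp2a1, Sln, Pln, Cacna1s, Jph2 and Ryr3 had no row.

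Asb5 encodes an ankyrin repeat protein whose SOCS box docks onto the cullin 5 ubiquitin ligase, and it is made mainly in muscle. It lies on chromosome 8 from 54550331 to 54587842. In HFD mice 1 to 5 its log2 CPM was -1.27, -0.71, -1.08, -1.36 and -0.44. Among the IMC-treated mice it ran from 0.09 (mouse 5) through a median of 0.62 to 1.31 (mouse 6). In IMC-treated mice it had the fewest reads of the 7 genes, at 25 to 60 per mouse. HFD mice held 9 to 17 reads of Asb5 and 9 to 15 of Myh2. The lowest IMC-treated mouse was 0.53 log2 units above the highest HFD mouse for Asb5. The mean was -0.97 ± 0.39 (SD, n = 5) and 0.63 ± 0.49 (SD, n = 6), a log2 fold change of 1.61 (SE 0.26), or 3.04-fold. Of its 50-base stretches, 1.51% are shared with Spcs3.

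Of 22 ASB genes and ligase partners, 12 had a row, and of the 11 besides Asb5, 2 were higher, 1 was lower and 8 were not called by limma. Asb1, a relative made in many tissues, rose by 0.42 (SE 0.07, limma adjusted p = 0.000422). The log2 fold changes of Asb3, Asb4, Asb6, Asb7, Asb8 and Asb13 lay between -0.31 and 0.12 and did not pass the test, although Asb4 did without HFD + IMC mouse 4 (-0.43, limma adjusted p = 0.0354). Cul5, the cullin itself, was higher by 0.16 (SE 0.05, limma adjusted p = 0.0265), a call lost without HFD mouse 1, 2 or 5 or HFD + IMC mouse 1 or 2 (limma adjusted p = 0.0506 to 0.0657). Rnf7, its RING partner, fell by 0.16 (SE 0.05, limma adjusted p = 0.0288), a call lost without HFD mouse 1, 3 or 4 or HFD + IMC mouse 5 or 6 (limma adjusted p = 0.0505 to 0.0775). Asb2, Asb11, Asb12, Asb14 and Asb15 had no row.

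Tmem182 encodes a membrane protein made in muscle and adipose tissue that acts on myoblast fusion through integrin beta-1. The gene spans chromosome 1 from 40805573 to 40856887. Its log2 CPM in HFD mice 1 to 5 was 4.51, 4.98, 4.75, 4.76 and 4.74. With IMC it ran from 5.68 (mouse 3) through a median of 5.81 to 6.05 (mouse 1). It had the most reads of the 7 genes (505 to 738 per HFD mouse and 1142 to 1514 per IMC-treated mouse) and the smallest difference. The mean was 4.75 ± 0.17 (SD, n = 5) and 5.82 ± 0.14 (SD, n = 6), a log2 fold change of 1.08 (SE 0.08), or 2.11-fold.

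Of 29 myogenic regulators and fusion genes, 15 had a row, and of the 14 besides Tmem182, 4 were higher, 0 were lower and 10 were not called by limma. Six4, a homeobox factor of muscle precursors, rose by 1.13 (SE 0.21, limma adjusted p = 0.00108). Its level was low, at 16 to 32 reads per HFD mouse and 34 to 70 per IMC-treated mouse. Tead1, the factor that binds the MCAT element, and Vgll3, a cofactor of TEAD proteins, rose by 0.44 (SE 0.06, limma adjusted p = 0.000152) and 0.57 (SE 0.10, limma adjusted p = 0.000658). Srf, which binds the CArG box, had a log2 fold change of -0.13 (SE 0.06) that did not pass the test (limma adjusted p = 0.102), but was called lower without HFD mouse 5 (-0.17, limma adjusted p = 0.0312) and was named after its values were seen. In this list 2 genes were lower at an unadjusted p under 0.05 and 0 by limma voom. The count of lower genes was 3 without HFD mouse 5, 2 without HFD + IMC mouse 5 and 1 without HFD + IMC mouse 4. Myod1, Myf5, Myog and Pax7, which mark muscle precursors, had no row.

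Of 16 genes of muscle energy metabolism, 11 had a row, and 6 were higher, 0 were lower and 5 were not called by limma. Fabp3, the fatty acid carrier of heart and oxidative muscle, rose from a log2 CPM of -0.72 ± 0.59 (SD, n = 5) to one of 0.87 ± 0.56 (SD, n = 6) (limma adjusted p = 0.00161). It rested on few reads, 8 to 24 per HFD mouse and 31 to 74 per IMC-treated mouse. Gys1, muscle glycogen synthase, rose by 0.63 (SE 0.10, limma adjusted p = 0.000363), Phka1, a phosphorylase kinase subunit, by 0.28 (SE 0.08, limma adjusted p = 0.0103) and Pvalb, the calcium buffer of fast fibres, by 0.63 (SE 0.18, limma adjusted p = 0.0136). No gene of this list was lower at an unadjusted p under 0.05 or by limma voom. Over the 7 lists, 28 of the 89 genes besides the 7 described were higher and 10 were lower by limma. Together 42.7% were called, beside 40.9% of all genes. With the reads scaled to the library total, 26 were higher and 17 lower. The lists were written with earlier results of these data known.

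**Figure D2:**
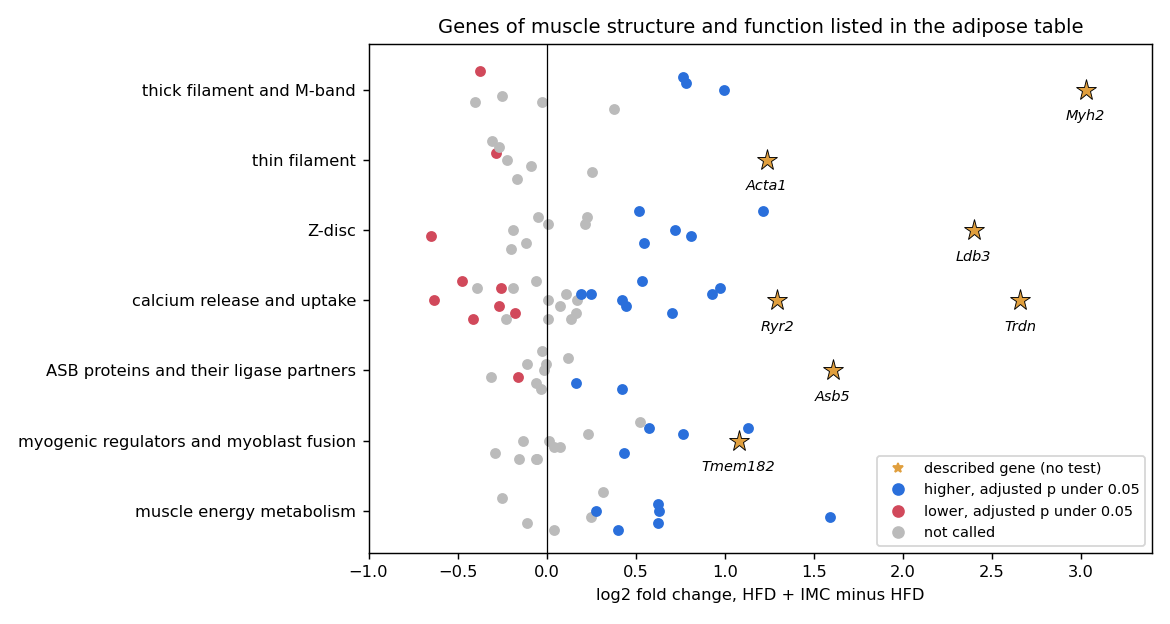
Log2 fold change (HFD + IMC minus HFD, x axis) of every listed gene in 7 groups of muscle genes (rows), with blue for higher, red for lower and grey for not called by limma at an adjusted p of 0.05, and stars for the 7 described genes, which carry no test. Myh2, Trdn and Ldb3 lie to the right of all other genes shown, and the calcium genes spread to both sides of 0.

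Levels of different genes were compared as CPM per kilobase of merged GENCODE exon, a scale that depends on which isoforms were made. By medians over HFD mice the order was Tmem182 (9.88), Acta1 (8.59), Ldb3 (0.737), Trdn (0.459), Asb5 (0.256), Ryr2 (0.197) and Myh2 (0.0612). The ranges of neighbours in this order overlapped except between Acta1 and Ldb3 and between Ryr2 and Myh2. In IMC-treated mice the medians were 20.7 for Tmem182, 19.4 for Acta1, 4.04 for Ldb3, 2.41 for Trdn, 0.844 for Asb5, 0.519 for Myh2 and 0.461 for Ryr2. There the ranges overlapped between neighbours except between Acta1 and Ldb3 and between Trdn and Asb5, so Myh2 and Ryr2 were no longer set apart. On the same scale Adipoq, the adipocyte hormone adiponectin, had medians of 536 and 1426, far above all 7 genes, and was added after its values were seen.

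Mice that were high for 1 gene were not always high for the others. Within groups, the deviations of the 7 genes from the group mean were correlated positively in 19 of 21 pairs over the 11 mice, with Pearson's r from -0.22 to 0.79 and a median of 0.42. The pairs share libraries and depth, so these values are a description. The highest r was between Trdn and Ldb3 (0.79), followed by Ldb3 and Ryr2 (0.76) and by the filament genes Myh2 and Acta1 (0.75). The 2 negative pairs set Trdn against Acta1 (-0.22) and Myh2 (-0.22), and HFD + IMC mouse 4 was the highest mouse of its group for both filament genes and the lowest for Trdn. Against the mean of the other 6 genes, r was 0.79 for Tmem182, 0.76 for Ldb3, 0.70 for Ryr2, 0.64 for Asb5, 0.58 for Acta1, 0.34 for Myh2 and 0.23 for Trdn.

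**Figure D3:**
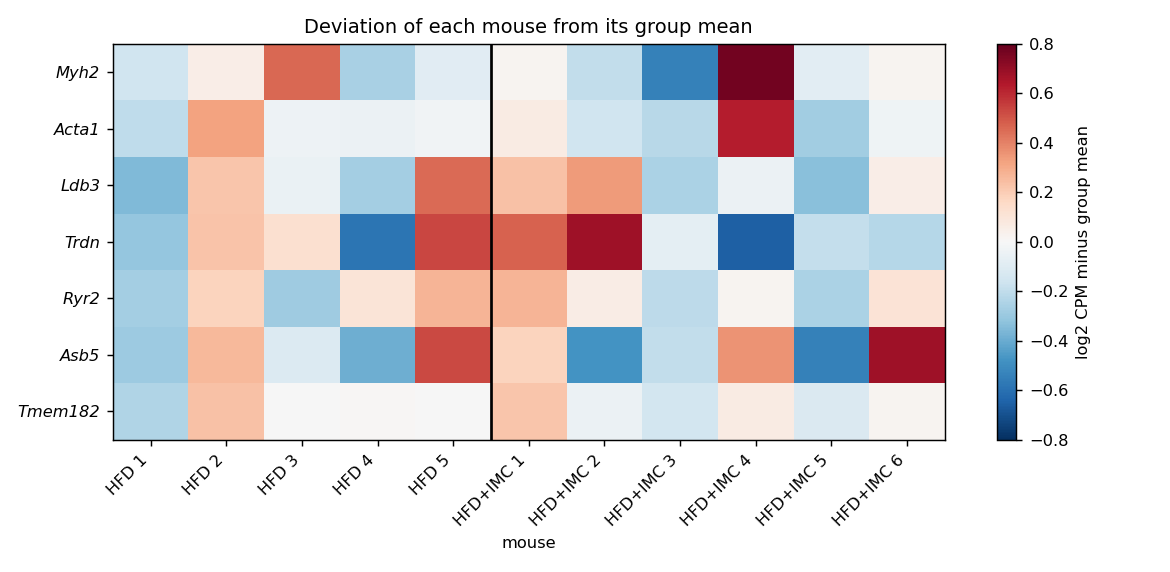
Deviation of each mouse (columns) from its group mean in log2 CPM (colour, red above and blue below) for each gene (rows), with a line between HFD and HFD + IMC mice. HFD + IMC mouse 4 is red for Myh2 and Acta1 and blue for Trdn, and HFD mouse 1 is blue for all 7 genes.

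The genes outside the set whose within-group deviations most resembled the mean of the 7 genes over the 11 mice were Mpp7 (Pearson's r 0.95), Smim10l1 (0.92), Ubd (0.92), Wbscr27 (0.92) and Btbd10 (0.92). These are the highest values among all listed genes, picked for that, and carry no test. Mpp7, a scaffold protein of cell junctions, rose from a log2 CPM of 5.39 ± 0.13 (SD, n = 5) to one of 6.20 ± 0.10 (SD, n = 6) (limma adjusted p = 2.3e-05). Ubd, a ubiquitin-like modifier, rose by 0.70 (SE 0.08, limma adjusted p = 5.34e-05), Wbscr27 by 0.57 (SE 0.07, limma adjusted p = 6.56e-05) and Smim10l1 by 0.39 (SE 0.06, limma adjusted p = 0.00022). Btbd10 was higher by 0.21 (SE 0.08, limma adjusted p = 0.0492), a call lost without HFD mouse 1, 3 or 4 or HFD + IMC mouse 1, 2, 4 or 6 (limma adjusted p = 0.0724 to 0.13).

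The tissue carried the markers of its label. For each count of 0 in the marker lists that follow, the count at an unadjusted p under 0.05 and by limma voom was also 0 unless given. All 14 adipocyte markers had a row and summed to 20869 to 26463 CPM in HFD mice and 32795 to 37893 CPM in IMC-treated mice, with 13 higher and 0 lower by limma. Lep, the hormone leptin, rose by 1.04 (SE 0.11, limma adjusted p = 4.14e-05) and Fabp4, the adipocyte fatty acid carrier, by 0.71 (SE 0.13, limma adjusted p = 0.000961). All 13 macrophage markers had a row, and 11 were lower and 0 higher, with summed levels of 14905 to 19114 CPM in HFD mice and 8100 to 12077 CPM in IMC-treated mice. Epididymis markers, of the organ beside this fat pad, had 0 of 10 genes listed. The adipocyte markers thus moved in the same direction as the 7 genes, and the part of the adipocytes in the levels of the 7 genes was not tested.

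On a scale of log2 CPM minus the mean log2 CPM of the 14 adipocyte markers in the same mouse, 4 of the 7 genes were higher with IMC without overlap, as were 0.164% of all 12787 genes. That marker mean was 9.20 ± 0.26 (SD, n = 5) with HFD alone and 10.05 ± 0.14 (SD, n = 6) with IMC, a difference of 0.85. The relative difference was 2.18 for Myh2, 1.81 for Trdn, 1.55 for Ldb3 and 0.45 for Ryr2. For Asb5 (0.76), Acta1 (0.39) and Tmem182 (0.23) the groups overlapped. This scale was added after the values were seen, uses the same values that chose the genes and carries no test.

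**Figure D4:**
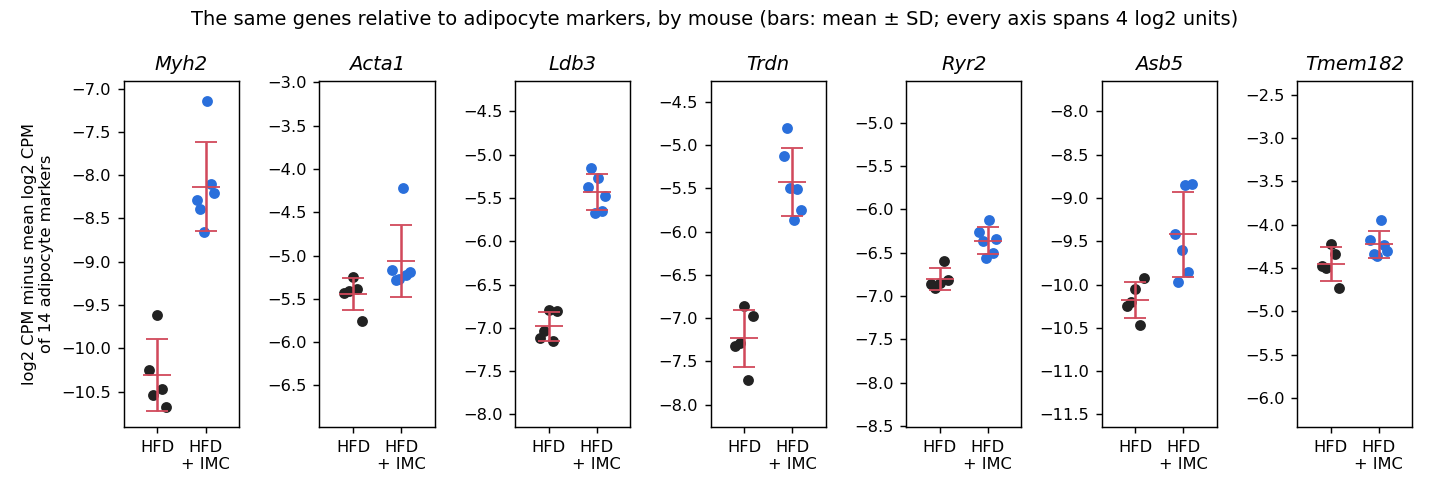
Log2 CPM of each gene minus the mean log2 CPM of 14 adipocyte markers (y axis) in each HFD (black) and HFD + IMC (blue) mouse, with red bars for the group mean ± SD and axes of equal span. Myh2, Trdn, Ldb3 and Ryr2 separate the groups, while Acta1, Asb5 and Tmem182 overlap.

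Markers of muscle and vessel cells were also summed. Of 20 skeletal muscle fibre markers, 9 had a row, and they summed to 67.1 to 87.5 CPM in HFD mice and 88.2 to 118 CPM in IMC-treated mice. Without Acta1, which is among them, the ranges were 53.9 to 74.3 and 60.9 to 80.3 CPM and overlapped. Besides Acta1, 3 of 8 were higher (Myl1, Pvalb and Casq1) and 0 were lower by limma, while 1 was lower at an unadjusted p under 0.05 and 0 by limma voom. Des, desmin, fell short of the test at -0.20 (SE 0.08, limma adjusted p = 0.0752) and was called lower without HFD mouse 3 or HFD + IMC mouse 6 (limma adjusted p = 0.0253 and 0.0384). The fibre genes Ckm, Mb, Ttn, Myh4, Atp2a1 and Tnnt3 had no row, so no level can be given for them. Of 12 cardiac markers, 2 had a row, Myl4 and Tnni3, and they summed to 8.16 to 12.6 and 12.1 to 19.98 CPM.

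Some vessel-associated markers were higher in IMC-treated mice and others were not called. Of 13 smooth muscle markers, 9 had a row, 4 were higher and 0 lower by limma, and the sum was 291 to 440 CPM in HFD mice and 493 to 641 CPM in IMC-treated mice. Mylk, the myosin kinase of smooth muscle, rose by 1.20 (SE 0.13, limma adjusted p = 4.54e-05), while Tagln had a log2 fold change of 0.01 (SE 0.18, limma adjusted p = 0.964). Of 8 pericyte markers, all listed, 5 were higher and 0 lower, and the sum was 481 to 630 and 828 to 1015 CPM. Mcam and Cspg4, surface proteins of pericytes, rose by 0.97 (SE 0.10, limma adjusted p = 3.64e-05) and 0.96 (SE 0.16, limma adjusted p = 0.000609), whereas Pdgfrb did not pass (-0.12, SE 0.06, limma adjusted p = 0.108). Mcam alone had a mean of 247 CPM in HFD mice and 479 CPM in IMC-treated mice, so it held a large part of the pericyte sum. Only 3 pericyte markers were higher when HFD mouse 1, 3 or 4 or HFD + IMC mouse 5 or 6 was left out.

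Of 19 brown and beige adipocyte markers, 12 had a row, 5 were higher and 0 lower by limma, and the sum was 130 to 148 CPM in HFD mice and 195 to 235 CPM in IMC-treated mice. Kcnk3, a potassium channel, rose by 1.41 (SE 0.13, limma adjusted p = 2.67e-05), Cidea, a lipid droplet protein, by 1.15 (SE 0.32, limma adjusted p = 0.0118) and Prdm16, the beige fate regulator, by 0.79 (SE 0.16, limma adjusted p = 0.00226), the last 2 named after their values were seen. Ebf2 had a log2 fold change of 0.01 (SE 0.19, limma adjusted p = 0.978). The 7 markers not called ran from -0.43 for Tmem26 to 0.43 for Elovl3, both named after their values were seen. Kcnk3 alone had a mean of 34.8 CPM in HFD mice and 91.6 CPM in IMC-treated mice, so it held a large part of the difference in the sum. Ucp1, Ppargc1a and Cpt1b had no row. The part of vessel, beige and fibre cells in the levels of the 7 genes was not tested.

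**Figure D5:**
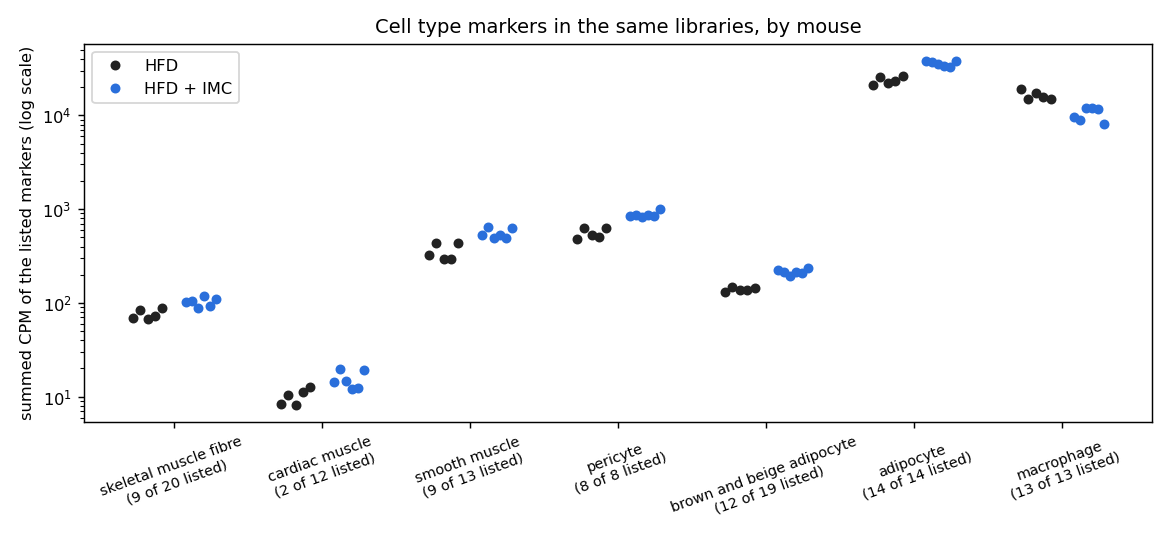
Summed CPM of each marker list (log scale, y axis) in each HFD (black) and HFD + IMC (blue) mouse, with the number of listed markers under each name. Adipocyte, skeletal muscle fibre (with Acta1), smooth muscle, pericyte and beige adipocyte sums are higher in every IMC-treated mouse than in any HFD mouse, and macrophage sums are lower.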

How the data were processed

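RNA from WAT of 11 mice was extracted with Qiagen RNeasy lipid columns and made into directional mRNA libraries. Per the paper's methods, reads passed through Trim Galore and FastQC and were mapped to mm10 and counted per gene by STAR, using transcript annotations from UCSC. The authors then removed low genes, scaled by upper quartile in edgeR and deposited log2 CPM values, 1 column per mouse. The table also holds the authors' own fold changes, p-values and FDR, which were not used. The methods describe removal of genes under 1 CPM in every sample, but each gene in the table exceeds 1 CPM in at least 5 mice, so a gene with no row may have been above 1 CPM in fewer. The strand setting is not given in the sources used here.

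The deposited log2 CPM were fitted with limma 3.58.1 in R 4.3.3 (group as the only factor, trend, 12787 genes, Benjamini-Hochberg adjustment, two-sided). Whole reads were recovered from the CPM steps (100% of values) for depth and other scalings. At 22320022 to 25155366 reads per library, genes of few reads carry the larger counting error. Exon lengths and 50-base overlaps came from GENCODE vM21 and positions and promoters from RefSeq. The read recovery and the limma fit were tested on simulated data. The simulated fit had 200 changed genes, far fewer than the 5236 called here, so it did not cover a change of this extent.

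The 7 genes and all lists were chosen with earlier results of these data known. Besides the 7, genes were named by a fixed rule: up to 4 called genes with the smallest p per muscle list, listed relatives of the 7, the 3 most abundant genes per marker list and the 5 most alike in pattern. Genes named outside it are marked. The result of 1 gene that the rule names is not reported here. Alternatives were 8 settings and each mouse left out.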

Additional observations from a re-analysis of the deposited data

Results flagged for a closer look

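Of 178 groups of values checked for a mouse far from the others of its group (Dixon's test at 95%, of which chance passes about 1 in 20), 3 stood out. None was a value of the 7 genes. Obsl1, a thick filament adaptor, was lowest in HFD mouse 4 at 3.47 log2 CPM, while the next mouse was at 3.73. Phka1, a phosphorylase kinase subunit, was highest in the same mouse at 4.24 log2 CPM, while the next was at 4.01. The summed pericyte markers were highest in HFD + IMC mouse 6 at 1015 CPM, while the next mouse was at 871 CPM.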

How the results depend on the processing

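Every log2 fold change of the 7 genes stayed positive under each setting and with each mouse left out. The genes were chosen for being higher with IMC and their groups did not overlap. Leaving out 1 mouse therefore could not turn the sign, and only the size of the change is informative here. Myh2 ran from 2.84 to 3.03 over settings and from 2.87 to 3.14 with a mouse left out, Trdn from 2.62 to 2.67 and from 2.51 to 2.79, and Ldb3 from 2.36 to 2.41 and from 2.31 to 2.51. Myh2 and Asb5 gave no value where a mean of at least 1 log2 CPM was required, and neither did Six4, Fabp3 and Tnni3. All genes called numbered 5053 to 5464 over settings and 4299 to 5125 with a mouse left out. Muscle list genes called lower numbered 10, but 13 with quantile normalization and 17 with reads scaled to the library total. With a mouse left out they numbered 9 to 15. Scaling to the library total moved the median of all genes from -0.03 to -0.06. That scaling removed the calls of Cul5, Btbd10 and Itpr2 (named after its values were seen) and called Pdlim1, Des, Pdgfrb and Srf lower. Leaving out trend removed the call of Btbd10 and called Asb7 and Lpl higher. No named gene changed direction while called. No paired analysis was possible because the labels give the mice no numbers shared between groups. Low read numbers limit Myh2, Asb5, Fabp3 and Six4 in HFD mice, and genes with no row cannot be judged.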
